A study of Mus musculus with 27 samples.

Results

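The Hox cluster genes were examined in 27 fetal brain libraries of mouse. They were taken as every gene of the count table whose symbol is Hox, a cluster letter from a to d and a number, which gave 39 of 55416 genes. The study set short-lived mice (AKR/J, and B6.Cg-Cav1tm1Mls/J, here Cav1-null) beside long-lived C57BL/6J mice and sequenced polyadenylated RNA of the fetal brain. Brains were taken on gestational days 12, 15 and 17 (d12, d15 and d17, the plug day being day 1), with 3 libraries for each strain and day, and all 27 fetuses were female. Pregnancies were set up with mice of about 8 weeks, each strain on its own. Neither inbred strain, AKR/J nor C57BL/6J, carried an engineered allele. Cav1-null mice carry the Cav1tm1Mls deletion in every cell on a C57BL/6J background, so this strain differs from C57BL/6J at Cav1 and at whatever flanks it. No treatment was given to any group. The whole brain was dissected from each frozen fetus, and the sources used here do not say whether the 3 fetuses of a group shared a litter, so p-values measure only the spread between these libraries.

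Hox genes encode homeodomain transcription factors and lie in 4 clusters, in which the order of the genes along the chromosome follows the order of their activity from head to tail. Genes with the same number in different clusters form a paralogue group. The forebrain and the midbrain keep the clusters silent, the groups of low number are active from the hindbrain backwards, those of middle number from the caudal hindbrain and the spinal cord, and those of high number in the caudal trunk, the limb buds and the genital tubercle. In bulk RNA, as measured here, more cells of a type and more RNA per cell cannot be told apart.

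All 39 genes matched GENCODE M39 on GRCm39 by Ensembl identifier. The HoxA cluster lies at chr6:52132570-52237822 on the minus strand with 11 genes, HoxB at chr11:96085106-96259082 on the plus strand with 10, HoxC at chr15:102829538-102945278 on the plus strand with 9 and HoxD at chr2:74498654-74595486 on the plus strand with 9. By paralogue number, 8 genes belong to groups 1 to 3, 15 to groups 4 to 8 and 16 to groups 9 to 13. Each gene holds a homeobox of 180 bases inside 1 exon, and the closest pair of homeoboxes was Hoxa3 and Hoxb3 with 93.9% identical bases. The longest run of identical bases between any pair of homeoboxes was 52 bases (Hoxa6 and Hoxb4), which is shorter than the reads of this series. The homeoboxes of Hoxa5 and Hoxd13, which have the highest mean count in paralogue groups 4 to 8 and 9 to 13, are printed to show how far genes of different position differ. They were read from GRCm39 in the direction of transcription, at chr6:52179612-52179791 (minus strand) for Hoxa5 and chr2:74500274-74500453 (plus strand) for Hoxd13, and capitals mark bases that differ from Hoxa5.
Hoxa5: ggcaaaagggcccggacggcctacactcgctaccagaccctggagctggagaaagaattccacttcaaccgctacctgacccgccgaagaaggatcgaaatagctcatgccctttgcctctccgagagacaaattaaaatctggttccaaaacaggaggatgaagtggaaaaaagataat
Hoxd13: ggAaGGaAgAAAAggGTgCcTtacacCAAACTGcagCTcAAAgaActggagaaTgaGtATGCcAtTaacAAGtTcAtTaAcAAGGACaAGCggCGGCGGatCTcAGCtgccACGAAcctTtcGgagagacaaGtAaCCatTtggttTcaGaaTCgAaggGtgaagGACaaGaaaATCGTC
Hoxd13 differs from Hoxa5 at 88 bases.

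The libraries held between 26363697 and 39759702 gene reads (median 29700746), so that a count of 0 allows up to 0.0755 to 0.114 CPM (counts scaled to a common total of gene reads, 3 reads, counting error only). Cav1 itself had 0 to 16 reads in the 9 Cav1-null libraries and 182 to 1288 reads in the 18 others. The AKR/J d12 libraries stood apart from the rest before any Hox gene was considered. Their 10 blood genes summed to 35406 to 135962 CPM against 1690 to 5177 CPM in the other 6 d12 libraries, and 14 genes of trophoblast, decidua and yolk sac summed to 1264, 245 and 43.1 CPM in replicates 1, 2 and 3 against at most 84.5 CPM in any other library. Neurod6 and Emx1, markers of the developing cerebral cortex, were at 0.35 and 0.909 CPM in replicate 3 of AKR/J d12 against at least 19.8 and 5.49 CPM in the 26 others, so this library went against its label of whole brain. Every comparison below that uses these libraries carries those differences, whose part in the Hox values was not tested.

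Most Hox genes were measured at low level. Of the 39, 35 reached 10 reads in at least 1 library, 10 of them in a single library, and Hoxc9, Hoxc10, Hoxc12 and Hoxb13 reached 10 reads in none. Per kilobase of exon, the mean over the 27 libraries was highest for Hoxa5, a regulator of neurons in the caudal hindbrain and cervical cord, at 3.73 CPM. Hoxc4 followed with 1.54, Hoxb5 with 1.41, Hoxa4 with 1.06, Hoxa2 with 1.05 and Hoxb8 with 0.969 CPM per kilobase, and the mean of every other member was lower. These means rest on few libraries, and by the median library the order turned, with Hoxa2 at 0.732, Hoxc4 at 0.577, Hoxb3 at 0.403 and Hoxa5 at 0.268 CPM per kilobase. Without the division by length, the highest mean of each cluster was that of Hoxa5 (7.01 CPM) in HoxA, Hoxb3 (4.31 CPM) in HoxB, Hoxc4 (3.95 CPM) in HoxC and Hoxd3 (2.0 CPM) in HoxD. The labels do not state whether the counting used strand, and 26 of the 39 members overlap an antisense gene and 15 a gene on the same strand, Hoxa3 with Hoxa5 among them, so reads in those stretches could have been split or shared.

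The reads of all 39 genes together differed widely between replicates of 1 group. In AKR/J the summed Hox level was 101, 4.45 and 4.79 CPM on d12, 14.2, 48.4 and 236 CPM on d15 and 25.1, 50.3 and 125 CPM on d17. In C57BL/6J it was 6.14, 0.600 and 3.73 CPM on d12, 1.81, 0.900 and 237 CPM on d15 and 11.4, 67.1 and 35.9 CPM on d17. In Cav1-null mice it was 1.21, 0.303 and 80.0 CPM on d12, 18.5, 49.6 and 3.20 CPM on d15 and 58.1, 5.62 and 4.13 CPM on d17. In 4 groups 1 library stood far above both others, namely replicate 1 of AKR/J d12, replicate 3 of C57BL/6J d15, replicate 3 of Cav1-null d12 and replicate 1 of Cav1-null d17. Within a group the highest library exceeded the lowest by 4.97 fold at the least (AKR/J d17) and by 264 fold in both C57BL/6J d15 and Cav1-null d12.

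**Figure D1:**
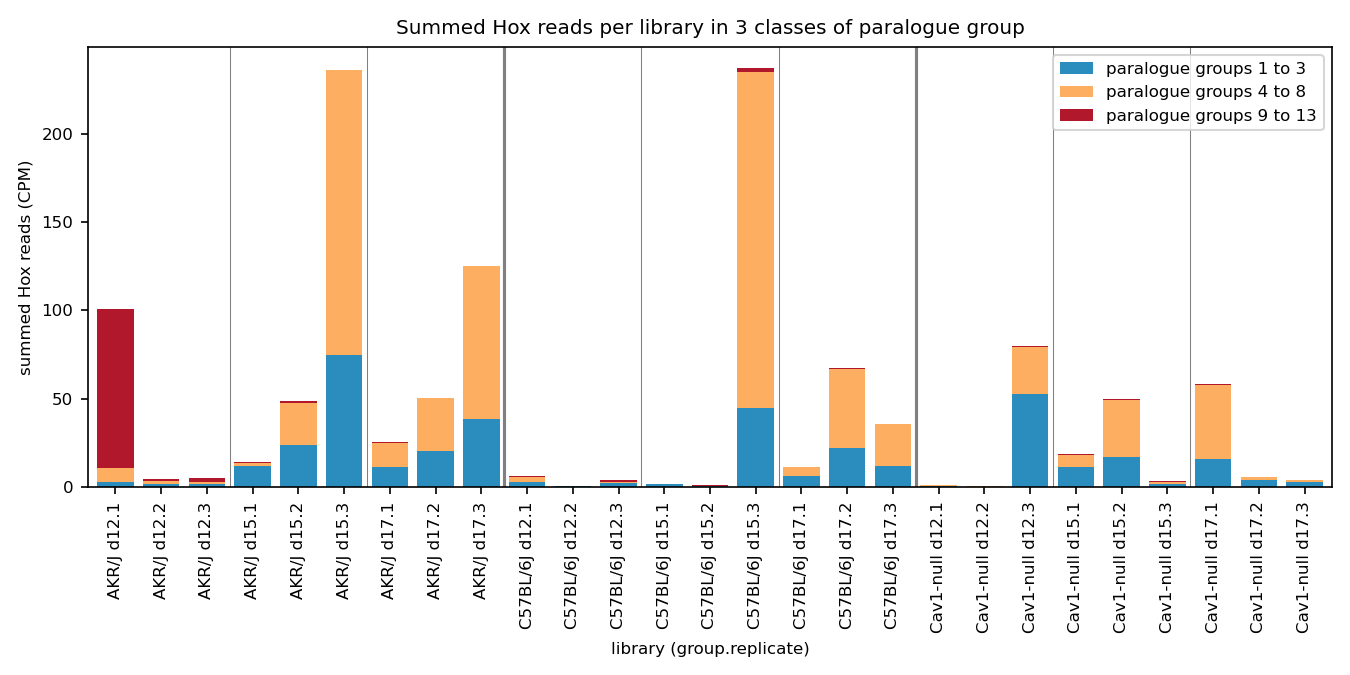
Stacked bars give the summed reads of all 39 Hox genes in CPM (vertical axis) for each of the 27 libraries (horizontal axis, group and replicate), split into paralogue groups 1 to 3, 4 to 8 and 9 to 13. AKR/J d15 replicate 3 and C57BL/6J d15 replicate 3 reach 236 and 237 CPM, while replicates 1 and 2 of C57BL/6J d15 stay at 1.81 and 0.900 CPM, and AKR/J d12 replicate 1 is the bar made mostly of groups 9 to 13.

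As means with their spread (SD, n = 3), the summed level was 36.7 ± 55.6, 99.6 ± 120 and 66.8 ± 51.9 CPM in AKR/J on d12, d15 and d17, and the SD exceeded the mean on the first 2 of these days. C57BL/6J had 3.49 ± 2.78, 80.0 ± 136 and 38.1 ± 27.9 CPM, and Cav1-null mice 27.2 ± 45.8, 23.8 ± 23.7 and 22.6 ± 30.8 CPM. Each group overlapped every other group in range except C57BL/6J d12, whose 3 libraries lay below all libraries of AKR/J d15, AKR/J d17 and C57BL/6J d17. Across strains, 6 of the 9 d12 libraries were under 5 CPM, against 3 of 9 on d15 and 1 of 9 on d17, and the median rose in that order from 4.45 through 18.5 to 35.9 CPM. Between 0 and 22 members reached 10 reads in a library, and 3 libraries had none that did, 1 each in C57BL/6J d12, C57BL/6J d15 and Cav1-null d12.

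**Figure D2:**
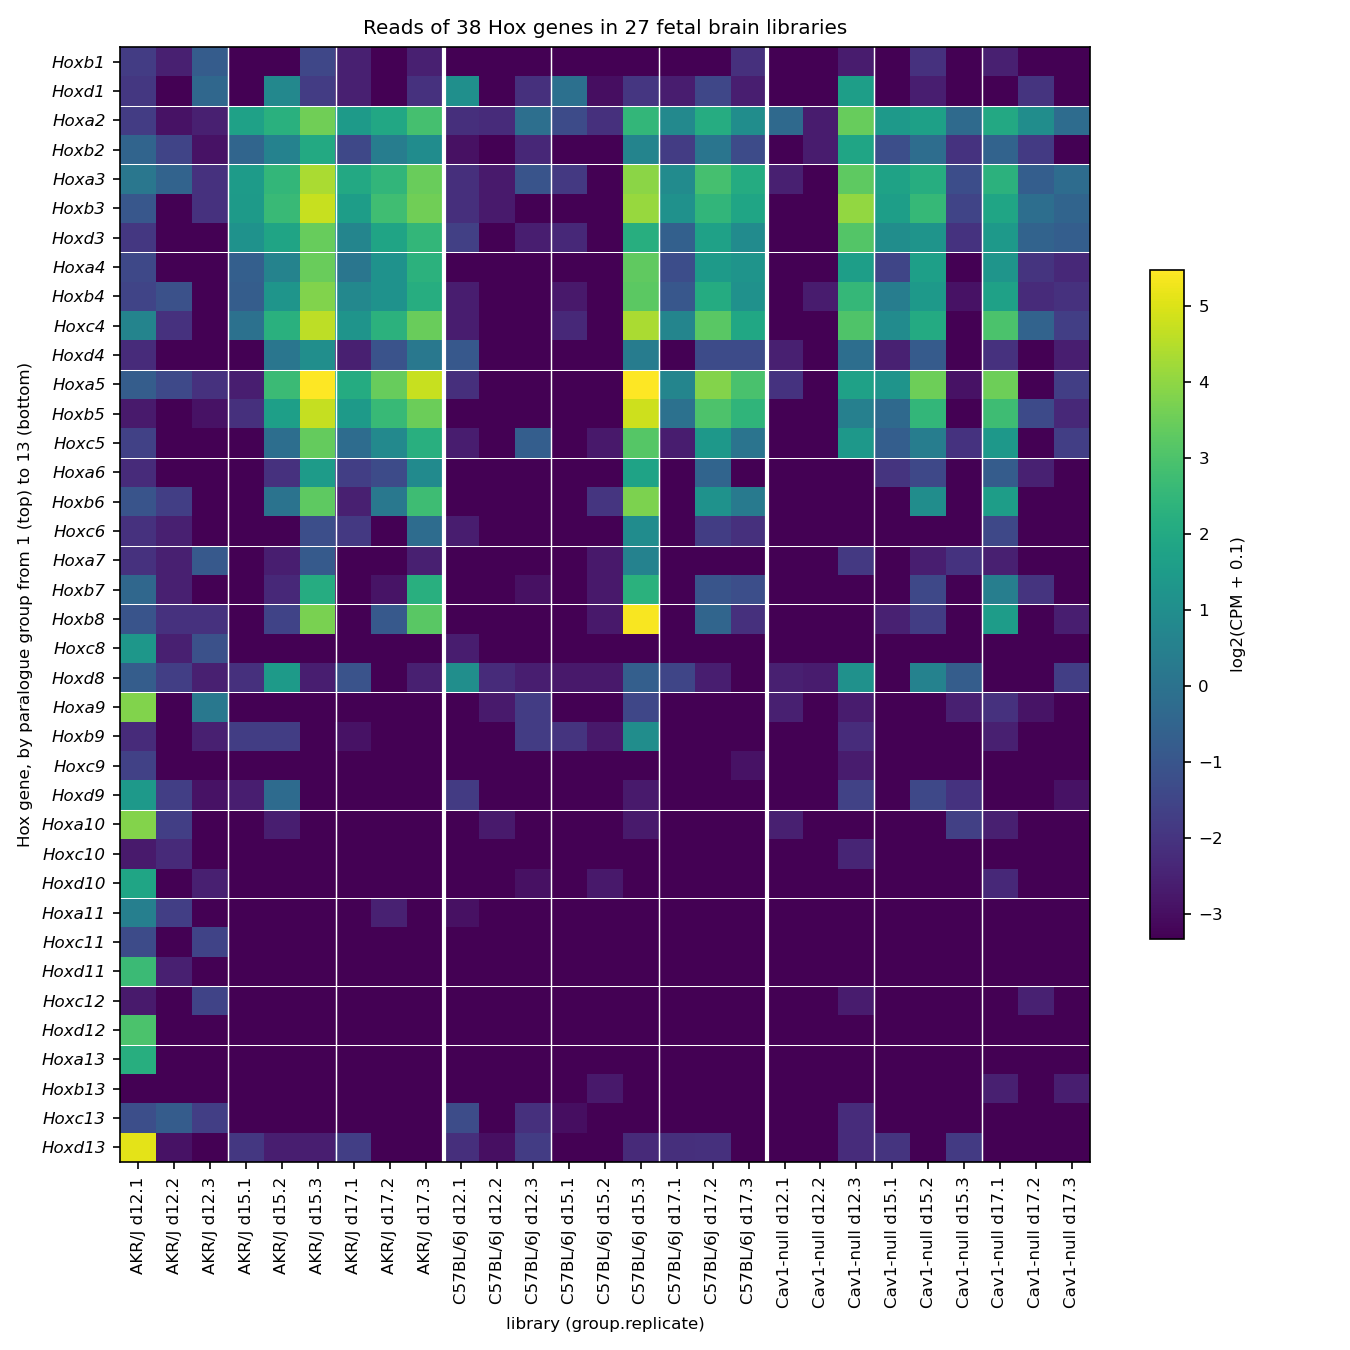
Colour gives log2(CPM + 0.1) of 38 Hox genes (vertical axis, paralogue group 1 at the top to 13 at the bottom) in each of the 27 libraries (horizontal axis, group and replicate). Most genes of groups 2 to 5 are bright in AKR/J d15 replicate 3, C57BL/6J d15 replicate 3 and Cav1-null d12 replicate 3, of which the last is dark at group 6, Hoxb8 stands out in C57BL/6J d15 replicate 3 at 42.0 CPM, and groups 9 to 13 are dark outside AKR/J d12 replicate 1, where Hoxd13 reached 34.8 CPM.

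The genes of paralogue group 1, which pattern hindbrain segments early in development, had at most 2.99 CPM. That highest value was of Hoxd1, with 101 reads in Cav1-null d12 replicate 3, and Hoxb1 peaked at 14 reads in AKR/J d12 replicate 3. In group 2, Hoxa2, which sets the identity of the rostral hindbrain and is the Hox gene active farthest towards the head, was above 0 in all 27 libraries and reached 10 reads in 20, more libraries than any other member. Its highest level was 11.8 CPM (356 reads, AKR/J d15 replicate 3), and Hoxb2, needed for facial motor neurons, reached 4.01 CPM in the same library. In group 3, which is active in the caudal hindbrain, Hoxb3 reached 26.6 CPM, Hoxa3 20.4 CPM and Hoxd3 10.7 CPM, all 3 again in AKR/J d15 replicate 3.

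Paralogue groups 4 and 5 mark the caudal end of the hindbrain and the cervical cord. Hoxc4 reached 24.0 CPM, Hoxb4 14 CPM and Hoxa4 11 CPM in AKR/J d15 replicate 3, where Hoxd4 had 1.92 CPM. Hoxa5 had the highest level of any member in any library, 44.5 CPM (1656 reads) in C57BL/6J d15 replicate 3, where Hoxb5 also peaked at 28.2 CPM. Hoxa5 was far apart between the replicates of 1 group. Its reads on d15 were 2, 185 and 1318 in AKR/J, 0, 0 and 1656 in C57BL/6J and 61, 333 and 1 in Cav1-null mice. On d17 they were 121, 281 and 765 in AKR/J, 46, 423 and 227 in C57BL/6J and 334, 0 and 6 in Cav1-null mice. On d12 only Cav1-null replicate 3, with 107 reads, exceeded 18. In each strain the ranges of Hoxa5 on d15 and d17 overlapped, and d17 lay clear of d12 in AKR/J and C57BL/6J but not in Cav1-null mice.

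Groups 6 to 8 belong mainly to the spinal cord. The leading members were Hoxb6 with 13.4 CPM, Hoxb7 with 4.87 CPM and Hoxb8, known from spinal sensory circuits and from the haematopoietic lineage, with 42.0 CPM, each in C57BL/6J d15 replicate 3. Hoxb8 had 1561 reads in that library against 0 and 2 in the other C57BL/6J d15 replicates. It had 0, 7 and 389 reads in AKR/J d15, 0, 12 and 265 in AKR/J d17 and 81, 0 and 2 in Cav1-null d17, and at most 19 reads in every remaining library. Hoxb8 was thus carried by 4 libraries. Hoxd8 was highest in other libraries, with 78 reads in AKR/J d15 replicate 2, 71 in Cav1-null d12 replicate 3 and 61 in C57BL/6J d12 replicate 1. AKR/J d15 replicate 2 also held the cartilage transcripts Matn1 and Acan at 33.5 and 17.1 CPM. C57BL/6J d15 replicate 1 had similar levels of these 2 genes (30.7 and 26.6 CPM) with few Hox reads. Both genes were named after their values were seen, and their part in the Hox values was not tested.

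Across these paralogue groups 2 libraries led. Replicate 3 of AKR/J d15 held the highest value of the series for 10 members (Hoxa2, Hoxb2, Hoxa3, Hoxb3, Hoxd3, Hoxa4, Hoxb4, Hoxc4, Hoxd4 and Hoxc5), and replicate 3 of C57BL/6J d15 for 9 of more caudal position (Hoxa5, Hoxb5, Hoxa6, Hoxb6, Hoxc6, Hoxa7, Hoxb7, Hoxb8 and Hoxb9). Within groups of replicates, Hoxb3, Hoxd3, Hoxc4 and Hoxd4 were highest in the same library as Hoxa5 in 9 of 9 groups. For Hoxa2, Hoxb2, Hoxa3, Hoxb4 and Hoxc5 this was so in 8 of 9. Hoxa4 and Hoxb5 had a highest library in 8 groups and shared it with Hoxa5 in 8, and Hoxa6, Hoxb6, Hoxc6 and Hoxb8 had one in 7 groups and shared it in 7, the remaining groups being tied. These counts are a description, since all members of a library share its dissection, RNA and depth.

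The libraries with many Hox reads differed in how far along the paralogue groups their reads reached. Cav1-null d12 replicate 3 had 52.3 CPM in groups 1 to 3 and 26.8 CPM in groups 4 to 8, the reverse order of AKR/J d15 replicate 3 (74.6 and 162 CPM) and of C57BL/6J d15 replicate 3 (44.8 and 190 CPM). In Cav1-null d12 replicate 3 Hoxb3 had 560 reads, Hoxa2 360, Hoxa3 325 and Hoxc4 275, whereas Hoxa5 had 107, Hoxb5 45 and the 3 members of group 6 had 0. In C57BL/6J d15 replicate 3 Hoxb3 had 639 reads, but Hoxa5 had 1656, Hoxb5 1047, Hoxb6 499 and Hoxb9, the most caudal member above 10 reads there, 71. The ratio of Hoxb8 to Hoxb3 reads, which for this same pair of genes can be compared between libraries, was 2.44 in C57BL/6J d15 replicate 3, 0.933 in AKR/J d12 replicate 1, 0.802 in Cav1-null d17 replicate 1, 0.775 in AKR/J d17 replicate 3, 0.486 in AKR/J d15 replicate 3, 0.117 in C57BL/6J d17 replicate 2 and 0 in Cav1-null d12 replicate 3. In AKR/J d12 replicate 1 this ratio rests on 14 reads of Hoxb8 and 15 of Hoxb3, so it is imprecise. In 11 of the 27 libraries no member beyond group 5 reached 10 reads.

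**Figure D3:**
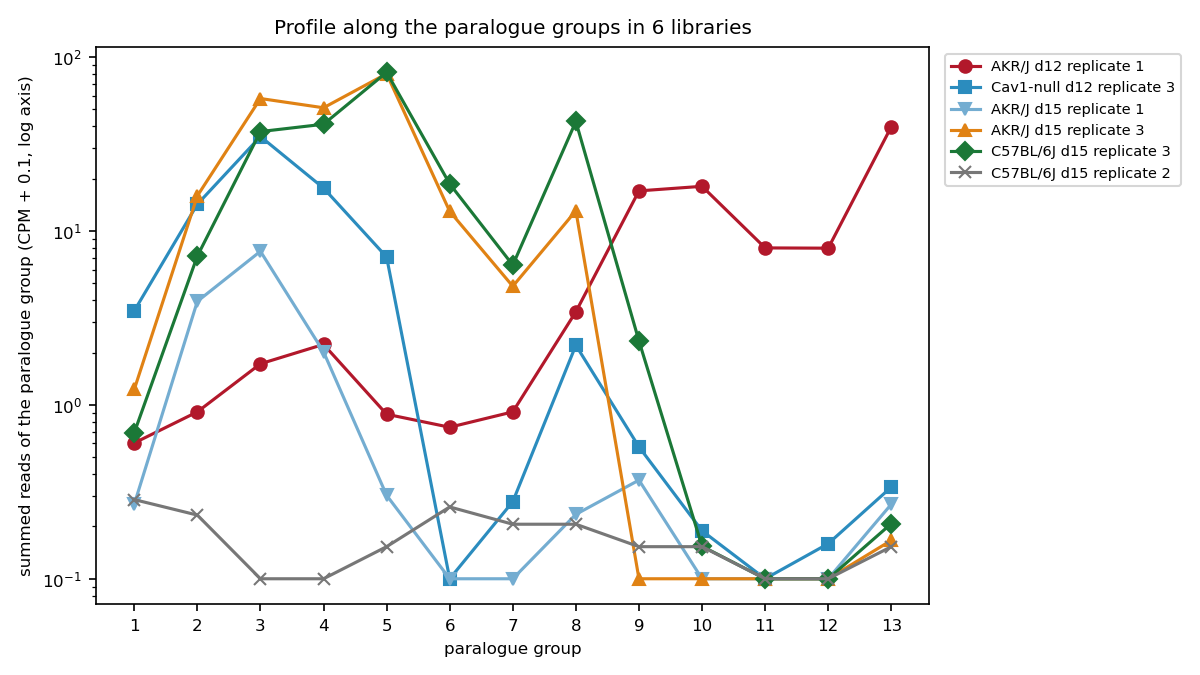
Summed reads of each paralogue group in CPM + 0.1 (vertical axis, log scale) against paralogue group 1 to 13 (horizontal axis) for 6 single libraries, each a line with its own marker. Cav1-null d12 replicate 3 peaks at group 3 and falls to 0 reads at group 6, C57BL/6J d15 replicate 3 stays high to group 8 with 42.5 CPM, and AKR/J d12 replicate 1 reaches 39.6 CPM at group 13.

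The genes of groups 9 to 13 came almost wholly from 1 library. AKR/J d12 replicate 1 held 3226 of their reads, against 390 in the other 26 libraries together, which is 89.2% of the total. There they made up 89.5% of the Hox reads and 88.7% of the Hox level per kilobase. In replicates 2 and 3 of that group they made up 30.2% and 40.1% of few Hox reads, at 1.34 and 1.92 CPM. Hoxd13, which shapes digits and the genital tubercle, had 1243 reads there. Hoxa10, which acts in the limb and in the uterine decidua, had 514 reads, Hoxa9 501, Hoxd12 279, Hoxd11 225 and Hoxa13, known from digits and from vessels of the placenta, 162. Hoxd10 had 126, Hoxd9 91 and Hoxa11 46 reads. Hoxd12 and Hoxa13 had 0 reads in each of the other 26 libraries, and only 4 of the 16 members reached 10 reads in another library. By contrast, Hoxc4 (53 reads), Hoxa3 (37) and Hoxa5 (18) were low in this library. In the 3 other libraries above 100 CPM in all, groups 9 to 13 had at most 2.39 CPM.

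Some genes of other tissues were also high in that library. The antisense RNA Hoxa11os had 4.92 CPM and Hottip, transcribed beside Hoxa13, 1.09 CPM. Among 12 limb and lateral plate genes, Tbx5 had 3.83 CPM and Hand1 1.85 CPM, their highest values in the series. The list as a whole, however, summed to 234 CPM there against 244 and 233 CPM in the other AKR/J d12 replicates, and it was higher in AKR/J d15 replicate 2 (266 CPM), C57BL/6J d12 replicate 3 (360.0 CPM) and Cav1-null d12 replicate 3 (380 CPM), all with few caudal Hox reads. The trophoblast, decidua and yolk sac list summed to 1264 CPM in this library, the highest of all 27. The part of any of these tissues in the caudal Hox reads was not tested.

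The early phase (d12 to d15) asks how transcript levels change while the brain forms its main divisions. In AKR/J, 11 of the 39 members could be tested and 7 rose, all from paralogue groups 2 to 5. The genes of groups 9 to 13, whose summed level averaged 31.2 CPM on d12 and 0.530 CPM on d15 and rested on 1 library, did not enter the test. By edgeR's quasi-likelihood test over 19935 genes, with p-values adjusted after Benjamini and Hochberg, 14.8% of all genes were called higher, 14% lower and 28.9% in either direction. The others did not pass the filter on low counts, and genes such as Hoxa2 and Hoxd3 could pass it through their d15 libraries alone, so that the count among tested members is a description.

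Hoxa2 had 7, 1 and 2 reads on d12 and 95, 138 and 356 on d15, and no d12 library reached any d15 library. Its log2 fold change was 5.40 (SE 0.82, adjusted p = 0.00347). Hoxd3 had 6, 0 and 0 reads against 63, 101 and 324, again without overlap, with a log2 fold change of 5.85 (SE 1.16, adjusted p = 0.00843) that depends on the prior count because of the zeros. Hoxb3 had 15, 0 and 4 reads against 79, 180 and 801 (5.32, SE 1.22, adjusted p = 0.0142), and Hoxa3 37, 17 and 4 against 82, 166 and 614 (3.50, SE 0.91, adjusted p = 0.0224), with each d15 library above each d12 library for both genes.

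Hoxb4, a gene of the caudal hindbrain boundary, had 9, 10 and 0 reads on d12 against 15, 68 and 423 on d15 (4.38, SE 1.31, adjusted p = 0.0378). Hoxa4 had 10, 0 and 0 reads against 16, 42 and 332 (4.82, SE 1.52, adjusted p = 0.0458). Both were higher in every d15 library, although d15 replicate 1 was close to the d12 range. For Hoxa5, with 18, 8 and 4 reads against 2, 185 and 1318 (5.23, SE 1.65, adjusted p = 0.0459), d15 replicate 1 lay below all d12 libraries, so the groups overlapped. Hoxc4 (53, 4 and 0 against 26, 138 and 725 reads, adjusted p = 0.108) and Hoxb6 (14, 6 and 0 against 0, 27 and 296, adjusted p = 0.146) overlapped too and did not pass the test. Hoxb2 (22, 7 and 1 against 19, 41 and 121 reads, adjusted p = 0.125) did not pass either, with its highest d12 level at 0.616 CPM and its lowest d15 level at 0.640 CPM.

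The AKR/J calls leaned on single libraries. Without d12 replicate 1, the library rich in caudal Hox reads, 6 were called higher (Hoxa2, Hoxa3, Hoxb3, Hoxd3, Hoxa4 and Hoxc4), and without d12 replicate 2, 5 were called, of which Hoxc8 and Hoxa9 were lower. Without d12 replicate 3, or without d15 replicate 3, only Hoxa2 and Hoxd3 remained called, and these 2 were called under all 12 alternative settings tried, the fit with no filter on low counts among them. Hoxb3 was called under 10 of 12, Hoxa3 under 7, Hoxa4 and Hoxb4 under 6 and Hoxa5 under 5.

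**Figure D4:**
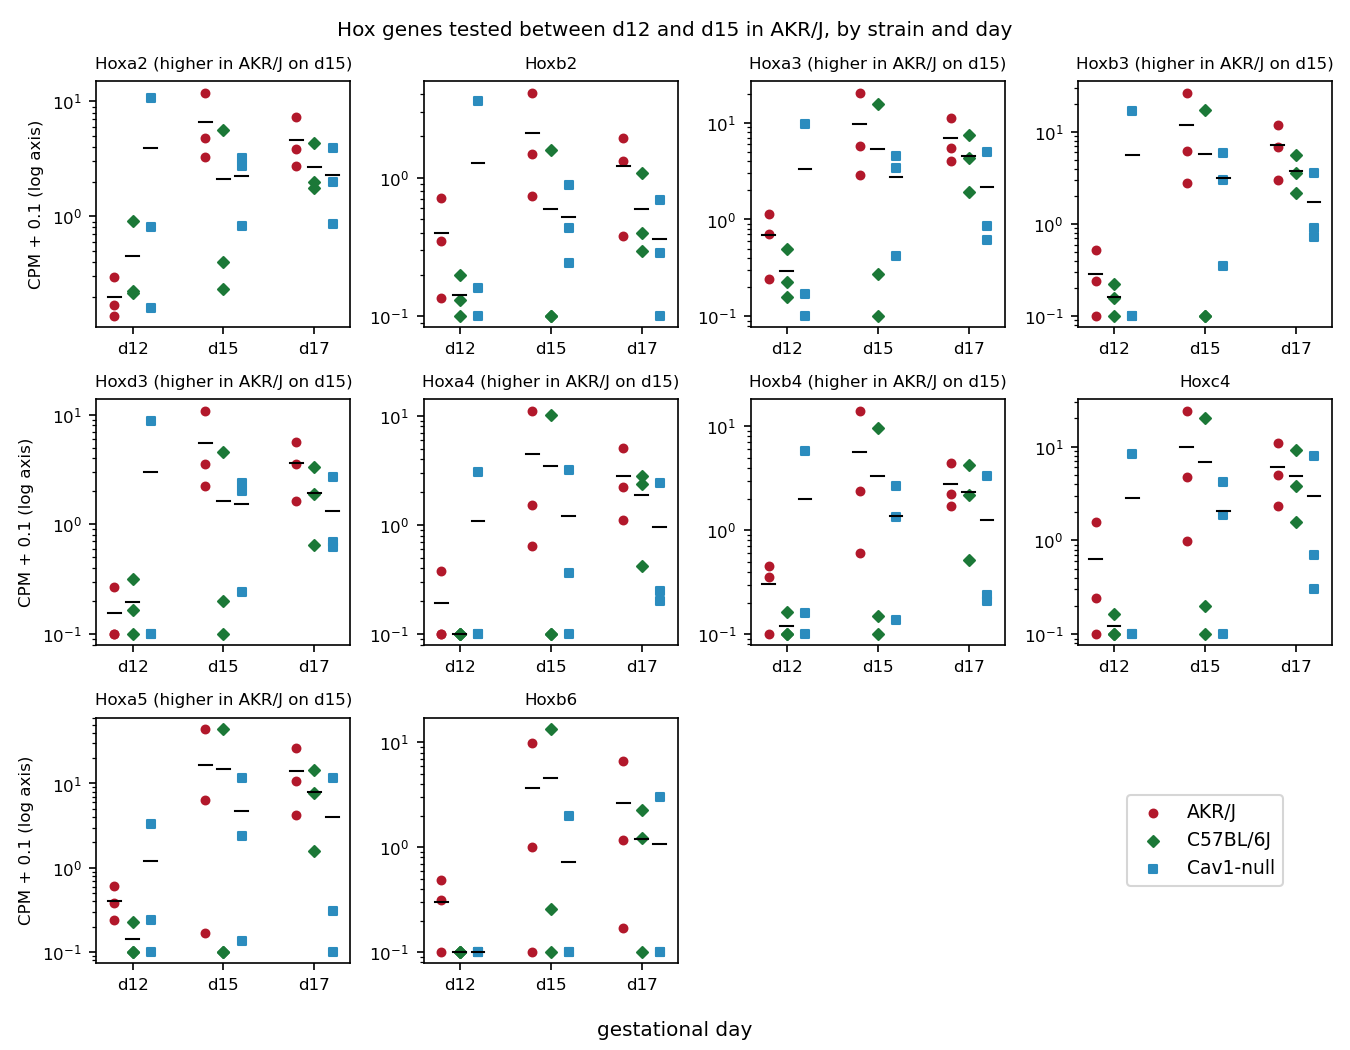
Each panel gives CPM + 0.1 (vertical axis, log scale) of 1 of 10 Hox genes tested between d12 and d15 in AKR/J against gestational day (horizontal axis), with a point for each library, coloured by strain, and a short line at the mean of 3. The AKR/J points of Hoxa2 on d15 (95 to 356 reads) lie above those of d12 (1 to 7 reads), while C57BL/6J and Cav1-null mice each have 1 high library on d15 or d12 respectively.

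The other 5 phase comparisons gave no call for a Hox gene in edgeR's quasi-likelihood test. Here and in the strain comparisons, members entered a fit through the libraries in which they were high, so medians and counts over the tested members are descriptions. The same holds where a library is left out, since the libraries that remain in its group may have almost no reads of a member, which then fixes the direction. In C57BL/6J from d12 to d15 only Hoxa2 passed the filter (log2 fold change 2.58, SE 1.42, adjusted p = 0.23), with 0 members under an unadjusted p of 0.05 and 0 by DESeq2. Of all genes 14.9% were called and 35.9% had an unadjusted p under 0.05. In Cav1-null mice over the same days 10 members were tested, with 0 under an unadjusted p of 0.05 and 0 by DESeq2, against 36.5% of all genes under that p and 23.4% called. Their median log2 fold change was -0.40, but without Cav1-null d12 replicate 3 the direction turned and 9 members were called higher on d15 (Hoxa2, Hoxa3, Hoxb3, Hoxd3, Hoxb4, Hoxc4, Hoxa5, Hoxb5 and Hoxc5).

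In the late phase (d15 to d17) AKR/J had 15 members tested, all with a negative log2 fold change (median -0.64, beside -0.01 over all genes), 0 called, 0 under an unadjusted p of 0.05 and 0 called by DESeq2, against 36.2% of all genes under that p and 22.1% called. The reads of Hoxa2 went from 95, 138 and 356 on d15 to 77, 99 and 208 on d17, and those of Hoxb3 from 79, 180 and 801 to 84, 177 and 342, so the days overlapped. C57BL/6J had 14 members tested with a median of -0.95, 0 called and 0 under an unadjusted p of 0.05, while DESeq2 called 1 (Hoxb9, lower). Of all genes 13% were called and 33.1% had an unadjusted p under 0.05. Without C57BL/6J d15 replicate 3 this direction also turned, and 6 members were called higher on d17 (Hoxa2, Hoxa3, Hoxb3, Hoxc4, Hoxa5 and Hoxb5). Cav1-null mice had 9 tested with a median of -0.13, 0 called, 0 under an unadjusted p of 0.05 and 0 called by DESeq2, against 38% of all genes under that p and 27.3% called. Without d17 replicate 1, 3 members were called lower on d17 (Hoxa3, Hoxb4 and Hoxa5), and without d15 replicate 1, only Hoxd8 was. The early and late comparisons of a strain share its d15 libraries.

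Between strains on 1 day edgeR's quasi-likelihood test called no Hox gene either, and the AKR/J and Cav1-null comparisons share the C57BL/6J libraries. On d12 only Hoxa3 could be tested between AKR/J and C57BL/6J (log2 fold change 2.12, SE 0.92, adjusted p = 0.113, the 1 member under an unadjusted p of 0.05), where 28.6% of all genes were called and 42.6% had such a p. DESeq2 called 6 members higher in AKR/J, among them Hoxb1, Hoxa7 and Hoxc8. Leaving out AKR/J d12 replicate 2 gave 2 calls, Hoxa9 and Hoxc8. On d15, 14 members were tested with a median of 0.69 (0 called, 0 under an unadjusted p of 0.05, 0 by DESeq2, against 49.6% of all genes under that p and 41.1% called). Without C57BL/6J d15 replicate 3, 8 were called higher in AKR/J (Hoxa2, Hoxb2, Hoxa3, Hoxb3, Hoxd3, Hoxa4, Hoxb4 and Hoxc4). On d17 all 13 members tested had a positive log2 fold change (median 0.86, beside -0.04 over all genes), with 0 called, 0 under an unadjusted p of 0.05 and 0 by DESeq2, against 21.2% of all genes under that p and 0.742% called. Leaving out C57BL/6J d17 replicate 2 gave 1 call, Hoxa2.

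Between Cav1-null and C57BL/6J mice only Hoxa2 could be tested on d12 (log2 fold change 3.29, SE 1.46, adjusted p = 0.232), with 0 under an unadjusted p of 0.05, 0 by DESeq2, against 22.1% of all genes under that p and 0% called. On d15, 11 members were tested with a median of -1.14 (0 called, 0 under an unadjusted p of 0.05, against 62.7% of all genes under that p and 58.6% called), and DESeq2 called Hoxd1 and Hoxb9 lower in Cav1-null mice. This direction rested on 1 library. Without C57BL/6J d15 replicate 3, 9 members were called higher in Cav1-null mice (Hoxa2, Hoxa3, Hoxb3, Hoxd3, Hoxb4, Hoxc4, Hoxa5, Hoxb5 and Hoxc5), with 0 to 12 reads of each in the C57BL/6J libraries that remain, whereas without C57BL/6J d15 replicate 1, Hoxc5 and Hoxb6 were called lower. On d17 all 11 members tested had a negative log2 fold change (median -0.91), with 0 called, 0 under an unadjusted p of 0.05 and 0 by DESeq2, against 7.55% of all genes under that p and 0.0491% called.

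The interaction term of strain and day, fitted to 12 libraries, asks whether strains changed unequally. In edgeR's quasi-likelihood test no Hox gene was called in any of the 4 interactions. For AKR/J against C57BL/6J, 19 members were tested in the early phase, 1 had an unadjusted p under 0.05 (Hoxa7) and DESeq2 called Hoxa4 and Hoxb5, with 16.3% of all genes under that p and 0.0711% called. In the late phase 18 were tested, 0 had an unadjusted p under 0.05 and DESeq2 called 0, with 7.57% of all genes under that p and 0.00468% called. For Cav1-null against C57BL/6J, 15 were tested in the early phase, 2 had an unadjusted p under 0.05 (Hoxb4 and Hoxc4) and DESeq2 called 0, with 15% of all genes under that p and 0.00472% called. In the late phase 16 were tested, 1 had an unadjusted p under 0.05 and DESeq2 called 0, with 21.9% of all genes under that p and 0.252% called. That member was Hoxb8 (interaction 9.18 on the log2 scale, SE 3.33, adjusted p = 0.15), which in C57BL/6J rested on d15 replicate 3 with 1561 reads. The calls in AKR/J and their absence in C57BL/6J are thus not shown to differ.

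Splice junctions were counted from the same reads of the same libraries. The deposited junction table held 10 junctions of 7 members (Hoxb2, Hoxb3, Hoxd3, Hoxc4, Hoxb5, Hoxb7 and Hoxa10) with 1387 reads in all, of which 7 libraries had 0, where a 0 may also be reads that the filters of the table removed. The 2 junctions with the most reads lie in Hoxb5 (336 reads, intron chr11:96195002-96195715, 714 bases, plus strand) and Hoxc4 (220 reads, intron chr15:102943588-102944062, 475 bases, plus strand). They are printed because only spliced transcripts of these genes join the exons in this way. Each intron starts with GT and ends with AG, and the sequence (GRCm39, direction of transcription) gives 20 bases before the intron in lower case and 20 after it in capitals.
Hoxb5 junction: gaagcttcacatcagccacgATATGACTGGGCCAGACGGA
Hoxc4 junction: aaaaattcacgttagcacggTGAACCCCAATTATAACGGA
The Hoxb5 junction had 98 reads in AKR/J d15 replicate 3, 105 in C57BL/6J d15 replicate 3 and 32 in AKR/J d17 replicate 3. The Hoxc4 junction had 55, 54 and 16 reads in these libraries. Neither was read in C57BL/6J or AKR/J d12, apart from 4 reads of the Hoxc4 junction in AKR/J d12 replicate 1. The only junction of Hoxa10 had 11 reads, all in AKR/J d12 replicate 1. A Hoxb3 junction (intron chr11:96231978-96234925) had 159 reads in all, of which 78 were in Cav1-null d12 replicate 3 and 30 in Cav1-null d15 replicate 2. It also had 13 and 8 reads in C57BL/6J d17 replicates 3 and 2 and 5 in AKR/J d15 replicate 1, but 0 in AKR/J d15 replicate 3 and C57BL/6J d15 replicate 3, where the gene had 801 and 639 reads.

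Some non-coding RNAs of the Hox clusters moved with the genes beside them. Of 15 on the list, 5 could be tested in AKR/J from d12 to d15 and 2 rose, where 14.8% of all genes were called higher. Haglr, transcribed opposite Hoxd3, rose by a log2 fold change of 6.38 (SE 1.06, adjusted p = 0.00469), and Hoxaas2, which overlaps Hoxa3, by 4.07 (SE 0.60, adjusted p = 0.00319). Haglr had 0 reads in d12 replicates 1 and 3, so it passed the filter through d15, and its fold change depends on the prior count. Without strand, reads of these RNAs and of the genes opposite them cannot be told apart. In the other 11 comparisons and the 4 interactions 0 of the 1 to 6 tested were called in edgeR's quasi-likelihood test. Haglr and Hoxb3os were each highest in the same library as Hoxa5 in 8 of 9 groups, and Hoxaas2 in 6 of 9.

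The TALE proteins (Pbx, Meis and Pknox), which bind DNA together with Hox proteins, were all 9 tested in every comparison. In AKR/J from d12 to d15, 3 rose and 0 fell by edgeR's quasi-likelihood test, Meis2 by 0.98 (adjusted p = 0.00877), Pknox1 by 0.95 (adjusted p = 0.0121) and Pbx3 by 0.71 (adjusted p = 0.0392) on the log2 scale, where 14.8% of all genes were called higher. Pbx2 was lower on the later day in 4 comparisons, by log2 fold changes of -0.71 in AKR/J (late), -0.70 in C57BL/6J (early) and -0.82 and -0.42 in Cav1-null mice (early and late). On d12, 6 of 9 were lower in AKR/J than in C57BL/6J, with log2 fold changes of -0.93 for Pbx3 and -0.86 for Meis2 among them, and 0 were higher, where 28.6% of all genes were called. On d15, 5 of 9 were lower in Cav1-null than in C57BL/6J mice, led by Pknox2 (-0.86), where 58.6% of all genes were called.

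Of 17 upstream regulators and cluster neighbours, 11 were tested in AKR/J from d12 to d15, and 3 were called higher and 1 lower, where 28.9% of all genes were called. Cyp26b1, which breaks down retinoic acid, rose by a log2 fold change of 2.44 (adjusted p = 0.0153), and so did Evx1, the neighbour of HoxA (1.97, adjusted p = 0.0441), while Fgf8 fell (-2.38, adjusted p = 0.0479), all in edgeR's quasi-likelihood test. Fgf8 also fell in C57BL/6J in that phase (-2.41, adjusted p = 0.0176). On d15, of 10 tested, 7 were lower in Cav1-null than in C57BL/6J mice and 0 higher, among them Aldh1a2 (-1.78, adjusted p = 2.49e-05 in edgeR), which makes retinoic acid, and Cyp26b1 (-1.36, adjusted p = 1.3e-05), where 58.6% of all genes were called. In AKR/J 3 of 10 were lower than in C57BL/6J and 0 higher, where 41.1% were called. Cdx1, Cdx2 and Cdx4, which open the trunk Hox genes in the tail bud, stayed at or under 0.36 CPM in every library.

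Polycomb and trithorax genes, whose products keep Hox clusters silent or active, were tested in full (18 of 18). In AKR/J from d12 to d15, 2 rose and 3 fell in edgeR's quasi-likelihood test, Ring1 by the most (-1.26, adjusted p = 0.00331), with Phc1 higher (0.74) and Eed lower (-0.68). These 5 of 18 stand beside 28.9% of all genes called in that comparison. From d15 to d17, 7 of the 18 fell in AKR/J and 7 in Cav1-null mice, where 22.1% and 27.3% of all genes were called. In the early and the late phase of C57BL/6J and the early phase of Cav1-null mice 5 fell, where 14.9%, 13% and 23.4% were called, and 0 rose in these 5 comparisons. Ezh2, the methyltransferase of Polycomb complex PRC2, was among them each time, with log2 fold changes of -0.52 in AKR/J (late), -0.58 and -0.94 in C57BL/6J (early and late) and -0.55 and -0.81 in Cav1-null mice (early and late) and adjusted p from 3.65e-06 to 0.0481 in edgeR. In edgeR's quasi-likelihood test these 5 comparisons had no Hox call, although other settings gave some, as listed below. A link of the Polycomb genes to the Hox levels was not tested. On d15, 10 of the 18 were lower and 2 higher in Cav1-null than in C57BL/6J mice, and 8 were lower and 2 higher in AKR/J, where 58.6% and 41.1% of all genes were called. Kdm6b, a demethylase that removes the mark of PRC2, was lower in both, with log2 fold changes of -1.49 (adjusted p = 1.03e-07) and -1.22 (adjusted p = 0.000149) in edgeR.

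Some markers of hindbrain, cord and ganglion neurons rose in AKR/J between d12 and d15, as did the called Hox genes. By library the match was partial. The hindbrain list summed to 89.2, 111 and 184 CPM in replicates 1 to 3 of d15, in the order of their Hox levels. On d12 it was lowest in replicate 1 (44.2 against 52.4 and 46.5 CPM), which had the most Hox reads. On d17 it was 81.0, 78.2 and 80.0 CPM. From d12 to d15, 7 of 13 genes of hindbrain and brainstem neurons rose and 0 fell in edgeR's quasi-likelihood test, among them Phox2a (4.77), Lbx1 (4.52) and Slc6a5 (3.96 on the log2 scale). So did 5 of 10 tested genes of spinal cord and motor neurons, 3 of 9 of sensory and autonomic ganglia, 2 of 10 of midbrain and rostral hindbrain (with 1 lower) and 1 of 13 of forebrain. In the same comparison 8 of 11 tested genes of trophoblast, decidua and yolk sac and 7 of 10 blood genes fell, as did 1 of 9 of limb and lateral plate, and 0 of 8 of paraxial mesoderm, cartilage and muscle were called. The trophoblast, decidua and yolk sac genes entered the fit mostly through the d12 libraries, with 3 of 14 at 10 reads or more in each d15 library, so their count is a description. The lists share genes, with En1 and Pax2 in both the cord and the midbrain list and Lmx1b in both the hindbrain and the limb list. Over all genes 14.8% were called higher and 14% lower, and the counts for midbrain, forebrain and limb genes lay near or under these shares. The part of these tissues in the Hox difference was not tested.

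By library, Lbx1, which specifies somatosensory relay neurons of the hindbrain and the cord, had 1.68, 3.67 and 9.02 CPM in AKR/J d15, 0.880, 1.91 and 11.7 CPM in C57BL/6J d15 and 0, 0.061 and 10.5 CPM in Cav1-null d12. In all 3 groups its highest library was the one with the most Hox reads. The hindbrain and brainstem list as a whole was also highest there (184, 151 and 200 CPM), and so it was in Cav1-null d15 (93.9 CPM). In AKR/J d12, C57BL/6J d12 and C57BL/6J d17, however, the library with the most Hox reads was the lowest for this list (44.2, 114 and 73.6 CPM). In AKR/J d17 and Cav1-null d17 it was neither the highest nor the lowest. The glycine transporter gene Slc6a5, a marker of inhibitory neurons of brainstem and cord, had 1.99, 1.67 and 18.4 CPM in C57BL/6J d15. Over all 9 groups Lbx1 and Slc6a5 were each highest in the same library as Hoxa5 in 6, Pax2 and Meis1 in 7 and Cyp26b1 in 4. The share of all genes that do so was not computed, so these counts are a description. The 13 forebrain genes summed to 1729, 1796 and 1534 CPM in C57BL/6J d15 and to 1425, 1165 and 358 CPM in Cav1-null d12, in both groups lowest in the Hox-rich replicate 3. Over all groups the library with the most Hox reads was the lowest for this list in 6 of 9. Cav1-null d12 replicate 3 was also the highest of its group for sensory and autonomic ganglia (129 against 45.9 and 48.2 CPM). The same held for limb and lateral plate (380 against 117 and 113 CPM) and paraxial mesoderm, cartilage and muscle (293 against 203 and 143 CPM). C57BL/6J d15 replicate 3 was the highest of its group for none of these lists. Their part in the Hox reads was not tested. Mnx1, which defines somatic motor neurons of the spinal cord, stayed at or under 0.20 CPM in all 27 libraries.

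**Figure D5:**
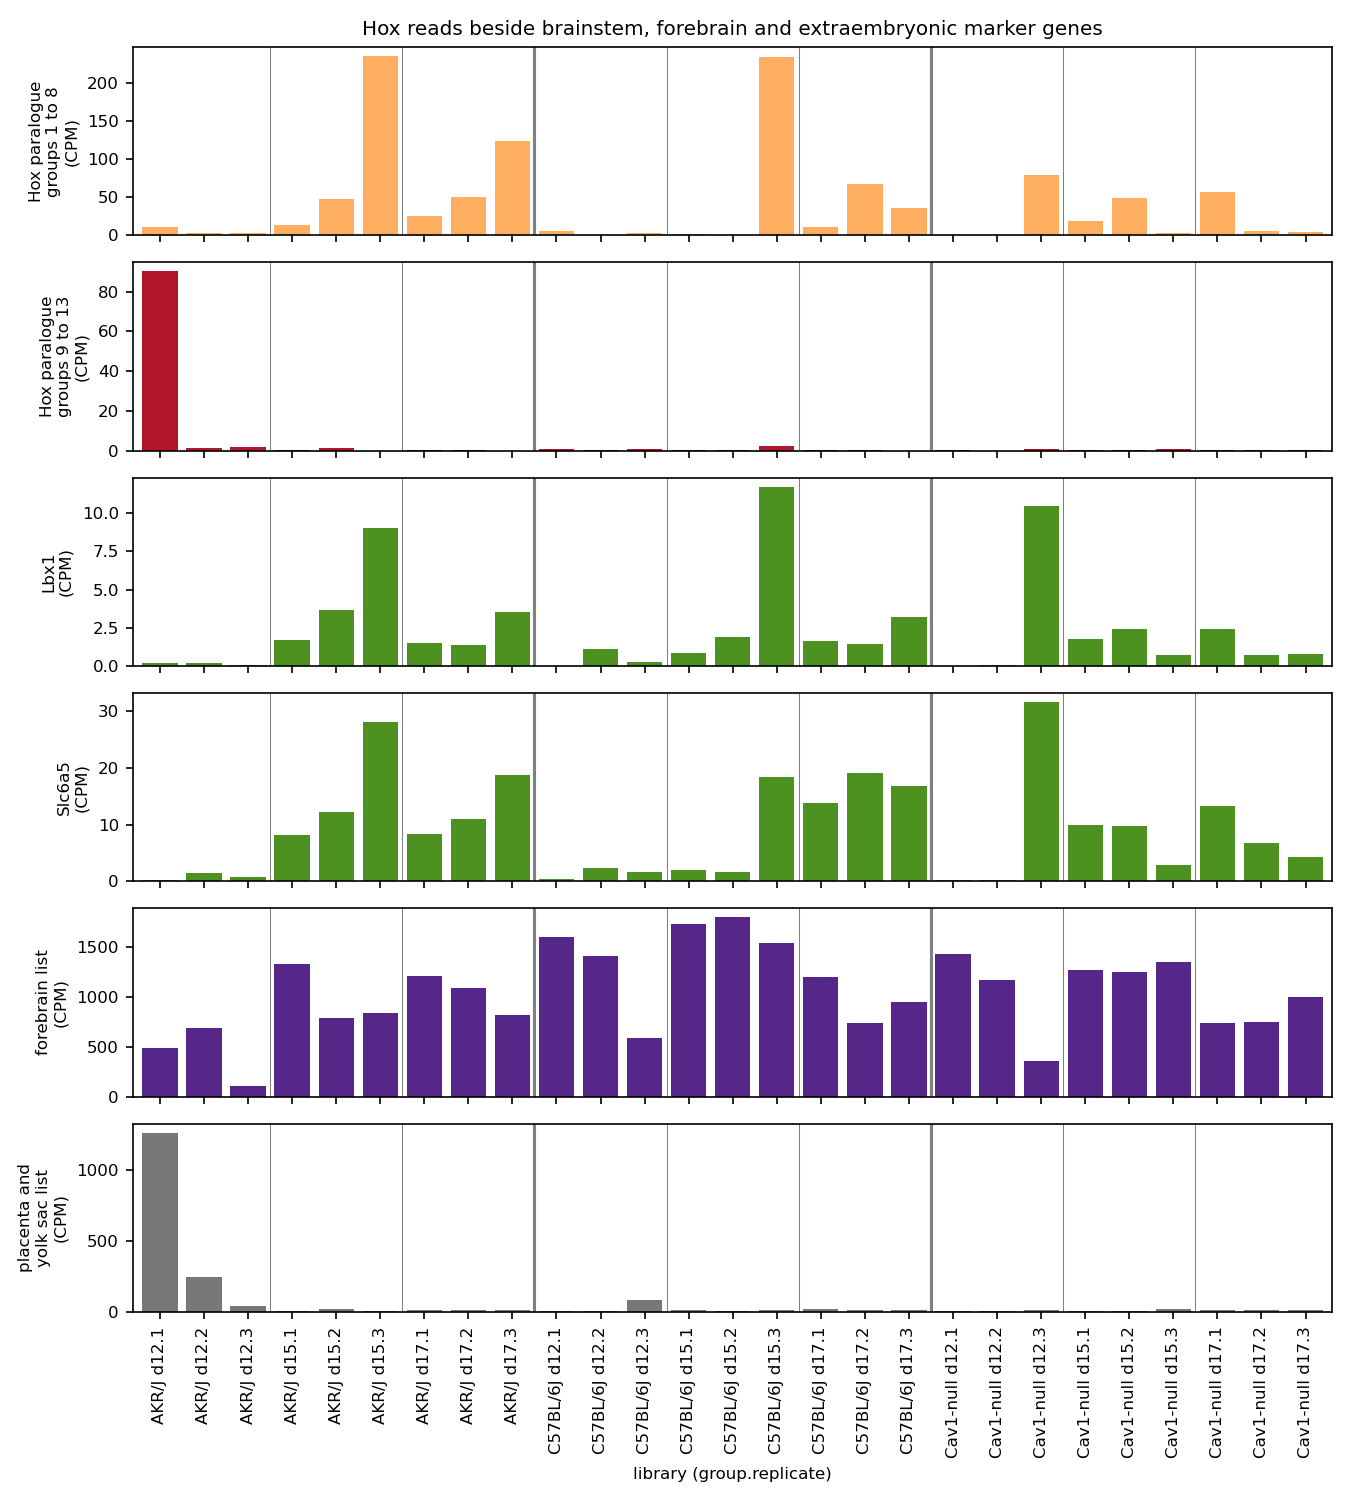
Bars give CPM (vertical axes, each from 0 with its own scale) in the 27 libraries (horizontal axis, group and replicate) for the summed Hox genes of groups 1 to 8, the summed Hox genes of groups 9 to 13, Lbx1, Slc6a5, the summed forebrain list and the summed trophoblast, decidua and yolk sac list. C57BL/6J d15 replicate 3 and Cav1-null d12 replicate 3 are high for Hox groups 1 to 8 and for Lbx1 (11.7 and 10.5 CPM), and AKR/J d12 replicate 1 is high for Hox groups 9 to 13 and for the last list (1264 CPM).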

How the data were processed

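The authors trimmed the paired-end reads with cutadapt and fastp, checked them with FastQC, mapped them to GRCm39 with STAR and deposited a table of raw counts of reads per gene, 1 column per library. The counting tool, its use of strand, its treatment of multi-mapped reads and whether reads or pairs were counted are not given in the sources used here. Among Hox values of 1 to 50 reads, 74.3% were even, against 58.5% over all genes. The deposited junction table holds counts of STAR junction reads on Ensembl release 110 after the authors' filters.

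The members and gene lists were chosen with earlier results of these data known. Named are all members called, the highest mean of each cluster, the highest single library of each paralogue group and, from 13 lists, the called genes with the largest change. For single libraries further members are named with their reads. Levels are counts scaled to the total of gene reads (CPM). Called means an adjusted p under 0.05 in edgeR 4.0.16 (filterByExpr, TMM scaling, quasi-likelihood test, R 4.3.3, the 6 libraries compared, or 12 for interactions), with Benjamini-Hochberg adjustment over all genes tested. Standard errors were taken from the F statistic. No p was computed for sums over members. Homeobox DNA is shown in place of protein sequence, which was not used here. On simulated counts for the AKR/J early phase, 190 of 200 changed genes were recovered with 13 false calls among 19592 genes. For AKR/J over C57BL/6J on d12, 191 of 200 were recovered with 6 false calls among 18950 genes. For the AKR/J interaction of the early phase, 164 of 200 were recovered with 11 false calls among 20372 genes. Recovery at the low counts and wide replicate spread of the Hox genes was not tested. No replicate pair agreed within sampling noise (lowest chi-square per degree of freedom 5.53). Alternatives were DESeq2 1.42.0, no filter on low counts, 1 model of all 27 libraries, a replicate block, other detection limits, TMM-scaled levels and leaving out each library. Tables and plots used pandas 2.3.3 and matplotlib 3.10.9. Some genes and sequences are not reported here, in the text or the plots by gene.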

Additional observations from a re-analysis of the deposited data

How the results depend on the processing

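Over 12 alternatives, the log2 fold changes of the 7 Hox genes called in AKR/J from d12 to d15 kept their direction in 84 of 84 values and stayed called in 58, with 26 losing the call, and 0 reversed. The count of 7 in that comparison became 23 with no filter on low counts (13 higher and 10 lower, the 10 mostly of paralogue groups 9 to 13), 4 in 1 model of all 27 libraries, 3 with a replicate block (Hoxa2, Hoxb3 and Hoxd3) and 2 to 10 when 1 library was left out. DESeq2 gave 10, of which 3 were lower. With no filter on low counts the counts of 0 became 1 in the C57BL/6J early phase, 1 in the C57BL/6J late phase, 2 in the Cav1-null early phase, 4 in the Cav1-null late phase, 16 for AKR/J over C57BL/6J on d12, 10 for Cav1-null over C57BL/6J on d15, 1 for the AKR/J interaction of the early phase and 1 for the Cav1-null interaction of the late phase. In 1 model of all 27 libraries they became 2 in the C57BL/6J early phase and 1 each in the C57BL/6J late phase, AKR/J over C57BL/6J on d12 and Cav1-null over C57BL/6J on d15. DESeq2 gave 1 in the C57BL/6J late phase, 6 for AKR/J over C57BL/6J on d12, 2 for Cav1-null over C57BL/6J on d15 and 2 for the AKR/J interaction of the early phase. The cause of these shifts was not tested, beyond the wider set of genes that enters a fit with no filter.

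When 1 library was left out, the count ranged from 0 to 6 in the C57BL/6J late phase, from 0 to 9 in the Cav1-null early phase, from 0 to 3 in the Cav1-null late phase, from 0 to 2 for AKR/J over C57BL/6J on d12, from 0 to 8 on d15 and from 0 to 1 on d17, from 0 to 9 for Cav1-null over C57BL/6J on d15 and from 0 to 1 for the AKR/J interaction of the early phase. In the 7 remaining comparisons and interactions it was 0 to 0. The mean summed Hox level ranged from 4.62 to 52.8 CPM in AKR/J d12, 31.3 to 142 in AKR/J d15, 37.7 to 87.6 in AKR/J d17, 2.17 to 4.94 in C57BL/6J d12, 1.36 to 119 in C57BL/6J d15, 23.6 to 51.5 in C57BL/6J d17, 0.758 to 40.6 in Cav1-null d12, 10.8 to 34.0 in Cav1-null d15 and 4.87 to 31.9 CPM in Cav1-null d17. Members detected per library averaged 8.67 at a limit of 1 CPM against 12.3 at 10 reads in C57BL/6J d17, 4.33 against 10.3 in AKR/J d12, 0.667 against 2.67 in C57BL/6J d12 and 4.67 against 8 in Cav1-null d17, and 17 at 5 reads in AKR/J d12 and 4.33 in C57BL/6J d12. TMM scaling moved the AKR/J d12 level from 36.7 to 53.2 CPM, and this and each other mean by less than its SD.

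The labels number replicates 1 to 3 in each group, but same-numbered libraries of 2 groups did not deviate together (correlations from -0.232 to 0.186), so the numbers do not pair them. The replicate block lowered the AKR/J early count to 3 and gave 1 call (Hoxa2) for AKR/J over C57BL/6J on d15. Under it no other comparison or interaction gained or lost a call of a Hox gene. A member at 0 reads in a library may still have up to 0.0755 to 0.114 CPM there, so smaller differences were not detectable at this depth.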
